A study of Homo sapiens with 8 samples.

Results

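The KRAB zinc finger genes of the chromosome band 19p12 are a block of related genes that lie side by side on the short arm of chromosome 19. The 32 genes described here were taken from a list of gene symbols of this block, and each was read from the transcript cluster that the platform annotation of the array gives that symbol. A transcript cluster is the array's set of probes for one transcribed unit. Of the 32 genes, 29 had a transcript cluster, with 1 cluster each, out of 53617 clusters with values, while ZNF726, ZNF738 and ZNF66 had none under that name. ZNF101 and ZNF14, which close the block on its telomeric side, are usually mapped to the adjacent band 19p13.11. The list was chosen by the position of its genes around ZNF681, and ZNF681 was itself selected on its log2 values in the TET1 shRNA and control shRNA arrays, so those values are given as a description with no test.

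The cells were HEK293T, a line derived from human embryonic kidney that carries adenoviral sequences and the SV40 large T antigen. Total RNA was measured on 8 Affymetrix arrays, in 2 experiments that share no reference sample. In the knockdown experiment, 2 clones carried different lentiviral short hairpin RNAs against TET1 (shTET1#1 and shTET1#2) and 1 clone carried a control hairpin (shControl). In the plasmid experiment, cells were transfected with wild-type TET1-FL, mutant mTET1-FL, wild-type TET1-CD, mutant mTET1-CD or the empty vector, and were sorted by fluorescence at day 3, with 1 array for each. The TET1 shRNA group was therefore the one group with more than 1 array. Each knockdown array was a single clone, and no label states that any arrays came from separate cultures. P-values therefore measure only the spread between these arrays, which the fit took from the 2 TET1 shRNA clones and the TET1 plasmid arrays. Neither shControl nor the vector, with 1 array each, added to that spread.

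KRAB zinc finger proteins bind DNA through arrays of zinc fingers, and their KRAB domain recruits TRIM28, which brings the histone methyltransferase SETDB1, heterochromatin protein 1 and DNA methylation to the bound site. Most of the genes of this block arose by tandem duplication in the primate lineage, and many of the proteins bind retrotransposons: ZNF91 is known to repress SVA elements and ZNF93 to repress a class of LINE-1 elements. TET1 is the dioxygenase that oxidises 5-methylcytosine in DNA, which makes the CpG content of the promoters a feature of interest beside the expression values.

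Most promoters of the block resembled each other in sequence. The windows come from RefSeq on GRCh38.p14 and run for 300 bases, 250 before and 50 after the annotated start on the gene's strand. Of the 32 genes, 25 had 1 such window, ZNF682 had 2 and was left out, and 6 had none. Over the 300 pairs of these 25 windows the identity ranged between 49.4% and 91.0% with a median of 77.1%, and the most alike pair was ZNF431 with ZNF714. The median identity of the same windows to those of the other zinc finger genes of chromosome 19 was 50.4%. Here and below, these others are all chromosome 19 symbols that begin with ZNF and are not among the 32. Their list holds some antisense RNAs such as ZNF566-AS1, and also genes that lie between the outermost members, such as ZNF728 and ZNF729. By this measure ZNF14, ZNF101, ZNF429 and ZNF708 were the least alike to the rest of the block, with median identities of 52.0%, 53.8%, 55.7% and 57.4%. Whole windows were aligned, so a start annotated at a different place in a similar promoter also lowers the identity. In the ZNF429 stretch printed below, the words in capitals lie nearer the start than in that of ZNF681. The cause of the low identities was not tested. The 250 bases before the start are printed below for 5 genes. Among genes that passed the signal filter described below, ZNF681, ZNF675 and ZNF429 had the largest differences in the knockdown comparison. ZNF681 was not tested there. ZNF430 had the largest difference in the plasmid comparison, and ZNF254 varied least over the arrays. Capitals mark 2 words shared across the block, TCCAATCAGG, which holds the CCAAT box that the factor NF-Y is known to bind, and CTGTCACTCA.
ZNF681: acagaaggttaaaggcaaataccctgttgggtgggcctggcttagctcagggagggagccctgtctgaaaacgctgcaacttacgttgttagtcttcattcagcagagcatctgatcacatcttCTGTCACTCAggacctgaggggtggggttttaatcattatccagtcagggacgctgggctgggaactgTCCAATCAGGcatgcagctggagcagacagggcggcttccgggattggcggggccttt
ZNF675: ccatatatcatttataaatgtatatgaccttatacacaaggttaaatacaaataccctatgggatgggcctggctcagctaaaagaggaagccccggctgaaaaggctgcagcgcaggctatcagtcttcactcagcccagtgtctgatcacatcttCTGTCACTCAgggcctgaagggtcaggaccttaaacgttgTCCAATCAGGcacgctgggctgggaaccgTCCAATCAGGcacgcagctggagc
ZNF429: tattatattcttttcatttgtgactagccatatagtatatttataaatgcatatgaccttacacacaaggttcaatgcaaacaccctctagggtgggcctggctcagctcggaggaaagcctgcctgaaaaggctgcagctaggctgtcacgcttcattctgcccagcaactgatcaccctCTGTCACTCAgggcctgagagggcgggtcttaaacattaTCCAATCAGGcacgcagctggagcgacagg
ZNF430: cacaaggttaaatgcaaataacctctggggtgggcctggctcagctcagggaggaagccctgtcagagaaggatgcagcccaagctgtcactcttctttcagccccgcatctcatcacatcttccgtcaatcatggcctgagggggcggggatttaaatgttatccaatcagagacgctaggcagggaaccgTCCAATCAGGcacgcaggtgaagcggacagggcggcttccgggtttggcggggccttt
ZNF254: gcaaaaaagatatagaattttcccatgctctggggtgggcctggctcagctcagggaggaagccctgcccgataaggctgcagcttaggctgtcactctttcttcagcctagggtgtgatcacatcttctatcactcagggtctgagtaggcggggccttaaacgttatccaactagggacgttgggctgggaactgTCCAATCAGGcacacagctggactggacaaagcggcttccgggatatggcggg
On GRCh38.p14 these stretches lie at chr19:23758892-23759141 on the minus strand for ZNF681, chr19:23687213-23687462 on the minus strand for ZNF675, chr19:21505352-21505601 on the plus strand for ZNF429, chr19:21020407-21020656 on the plus strand for ZNF430 and chr19:24086937-24087186 on the plus strand for ZNF254. All 5 lie immediately upstream of the annotated gene start.

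The word TCCAATCAGG was found, on either strand, in 23 of the 25 windows (92.0%), against 20 of the 280 windows of the other zinc finger genes of chromosome 19 (7.14%) and 0.347% of all 35116 windows in the table. Where it lay on the gene's strand, the first base of each copy was at positions -88 to -24 from the start, with a median of -58, and ZNF257 and ZNF493 were the members whose window lacked it. CTGTCACTCA was found in 20 of the 25 windows (80.0%), against 5.00% of the windows of the other zinc finger genes of chromosome 19 and 0.327% of all windows. Its first base was at positions -130 to -69. A further word, CTTTGTCTCT, was found in 18 of the 25 windows (72.0%), against 0.357% and 0.268%. All 3 words were picked after the windows had been read, so their shares describe the likeness of these promoters and test nothing.

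CpG dinucleotides were sparse in these promoters. The 25 windows held a median of 10 CpG (8 to 18), against 21 (2 to 49) in the windows of the other zinc finger genes of chromosome 19 and 14 in all windows. The median GC share was 56.0%, against 61.0% for the other zinc finger genes of chromosome 19 and 58.7% for all windows. In the printed 250 bases, ZNF681 and ZNF675 held 6 CpG each, ZNF429 held 5, ZNF254 held 7 and ZNF430 held 10. ZNF681 and ZNF675, which differed most in the knockdown comparison below, and ZNF254, which barely varied, had similar CpG counts and shared the CCAAT-box word. The other marked word, CTGTCACTCA, was in the windows of ZNF681, ZNF675 and ZNF429 and not in those of ZNF254 and ZNF430. These genes were picked by their expression values, and a link between promoter features and expression was not tested. Of the other motifs searched on both strands, the GC box GGGCGG was in 72.0% of the 25 windows, against 63.6% and 45.0%. The E-box CACGTG was in none of the 25 windows, against 5.36% and 7.26%. The letters GGAAGT were in 1 window, that of ZNF101 (4.00%), against 40.4% and 22.8%.

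All values below are log2 signals after RMA, the robust multi-array average, so a difference of 1 is a 2-fold change. A level is comparable between arrays for one gene, and not between genes, because each gene has its own probes. The array medians ran between 5.47 and 5.55, and the correlation between arrays over all clusters between 0.932 and 0.988. The HEK293T markers PAX2, LIN28B and VIM were above the array median on all 8 arrays, while CD14 of monocytes, ALB of liver, VWF of endothelium and DCN of fibroblasts were above it on none, and the liver gene APOA1 was above it on all 8 (6.02 to 6.48). TET1 was read by 2 clusters. The first had 8.62 in shTET1#1 and 9.14 in shTET1#2, against 9.29 in shControl, and the second had 5.27 and 6.20, against 5.71. The array labelled shTET1#2 was therefore only 0.15 lower than the control on the first cluster and 0.49 higher on the second, and the label is kept here with that limit wherever the 2 clones are averaged. In the plasmid experiment the first cluster had 12.22 in TET1-FL, 12.47 in mTET1-FL, 10.42 in TET1-CD and 11.05 in mTET1-CD, against 9.51 in the vector. On that cluster FL was above CD, and each wild-type plasmid was below its mutant. The second cluster had 11.80 in TET1-FL, 11.91 in mTET1-FL, 12.10 in TET1-CD and 12.03 in mTET1-CD, against 5.86 in the vector.

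Of the 29 genes on the array, 7 were above the array median on all 8 arrays (ZNF100, ZNF101, ZNF254, ZNF431, ZNF714, ZNF85 and ZNF98), 9 on 2 to 7 arrays, 2 on 1 array (ZNF486 and ZNF91) and 11 on none. The 16 genes above it on at least 2 arrays entered the tests, and 13 did not. ZNF681 passed that filter with 2 arrays, one of them shTET1#1, so it was kept in part through the samples in which it is high. The retrotransposon repressors ZNF91 and ZNF93 were among the 13.

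The members differed widely in how much they varied over the 8 arrays. The range, the highest minus the lowest log2 value, ran between 0.43 for ZNF254 and 2.73 for ZNF681, with a median of 0.84 over the 29 genes, against 0.67 over all clusters and 0.85 over the 202 other zinc finger genes of chromosome 19 with a cluster. It reached 2, a 4-fold span, in 5 of the 29 genes (17.2%: ZNF681, ZNF675, ZNF14, ZNF429 and ZNF682), against 17 of the 202 others (8.42%) and 2.52% of all clusters. ZNF681 entered the list because of its difference, so its place among the 5 is no finding. ZNF254, the member nearest the centromere in the gene order, stayed between 7.93 and 8.37 on all 8 arrays.

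**Figure D1:**
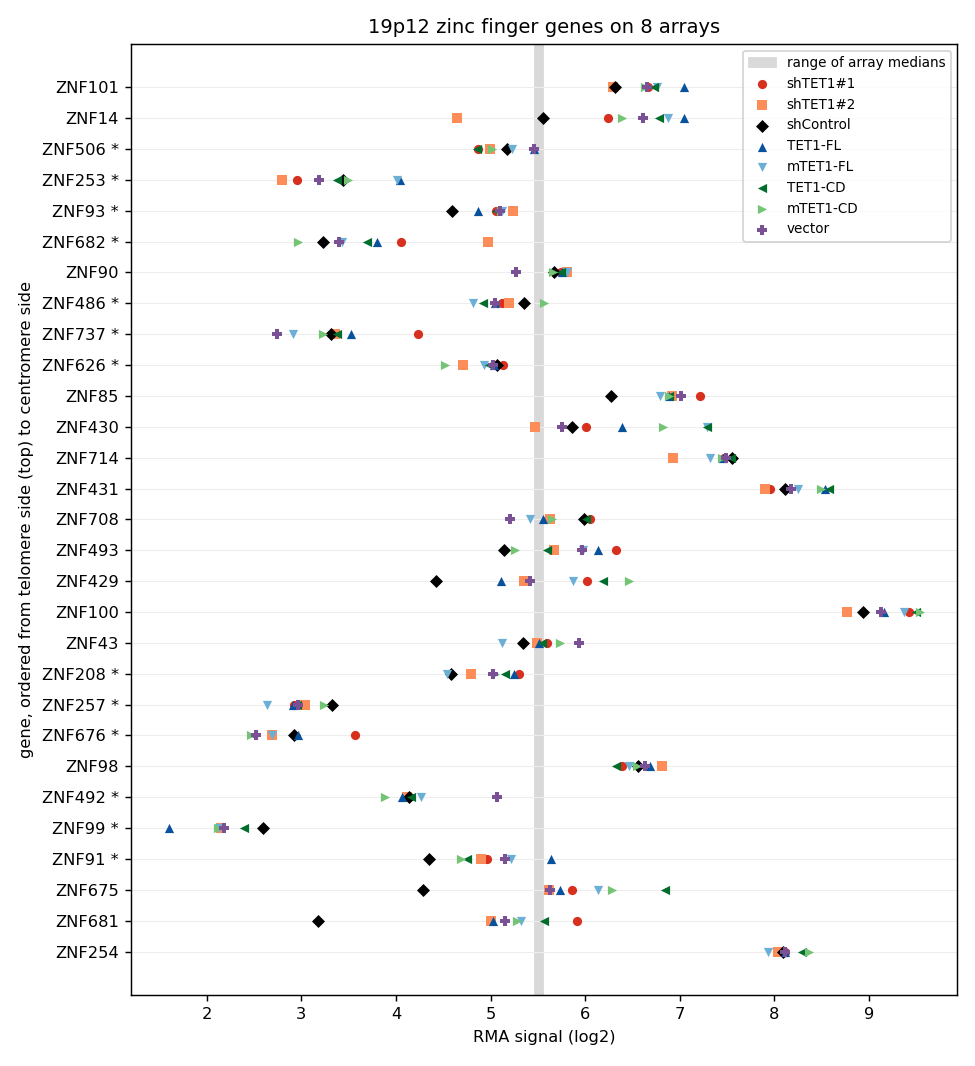
Log2 RMA signal (horizontal axis) of the 29 genes with a transcript cluster, in their order along the chromosome from the telomere side at the top, with 1 symbol per array; a star marks a gene that did not enter the tests, and the grey band is the range of the array medians. For ZNF681 and ZNF675 the black symbol of shControl, at 3.18 and 4.29, lies to the left of the other 7 arrays, while the symbols of ZNF254 span 0.43.

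ZNF681 was higher in both TET1 knockdown clones than in the control clone. It had 5.91 in shTET1#1 and 5.01 in shTET1#2, against 3.18 in shControl, which is 6.66-fold and 3.55-fold, and a difference of 2.28 between the means (SE 0.42, no test). The 5 arrays of the other experiment had 5.03 in TET1-FL, 5.32 in mTET1-FL, 5.57 in TET1-CD, 5.28 in mTET1-CD and 5.15 in the vector. The control clone was thus the array that stood apart for this gene: each of the other 7 arrays lay between 5.01 and 5.91, and shTET1#1 was the highest of them. Set against the empty vector in place of shControl, the TET1 shRNA mean was higher by 0.31.

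ZNF675, also known as TIZ, which binds TRAF6 and dampens its signalling, was also lowest in shControl and higher in shTET1#1 than in shTET1#2. It had 5.86 in shTET1#1 and 5.61 in shTET1#2, against 4.29 in shControl, a difference of 1.45 ± 0.32 (SE, adjusted p = 0.497 in limma). The arrays with plasmids had 5.74 in TET1-FL, 6.14 in mTET1-FL, 6.84 in TET1-CD and 6.29 in mTET1-CD, and the vector had 5.63. shTET1#1 lay within the range of the plasmid and vector arrays, and shTET1#2 just below it.

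ZNF429, ZNF493 and ZNF85 followed, with smaller differences. ZNF429 had 6.02 and 5.35 in shTET1#1 and shTET1#2, against 4.43 in shControl (1.26 ± 0.33 SE, limma adjusted p = 0.542). ZNF493 had 6.33 and 5.67, against 5.14 (0.86 ± 0.30 SE, limma adjusted p = 0.61). ZNF85 had 7.22 and 6.92, against 6.27 (0.80 ± 0.19 SE, limma adjusted p = 0.501). In all 3 genes both clones were above the control and shTET1#1 was the higher clone. Among genes below the filter, ZNF682 had 4.05 and 4.98, against 3.23, and was named after its values were seen because its range reached 2. ZNF91 had 4.96 and 4.90, against 4.35, and ZNF93 had 5.06 and 5.24, against 4.59.

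ZNF14 split the clones. It had 6.24 in shTET1#1 and 4.65 in shTET1#2, against 5.56 in shControl, so it was 0.68 higher in the first clone and 0.91 lower in the second. The array labelled shTET1#2 was the lowest of all 8 arrays for ZNF14, and TET1-FL, at 7.04, the highest. ZNF430 and ZNF100 were likewise above the control in shTET1#1 (6.01 against 5.86, and 9.43 against 8.94) and below it in shTET1#2 (5.47 and 8.77).

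**Figure D2:**
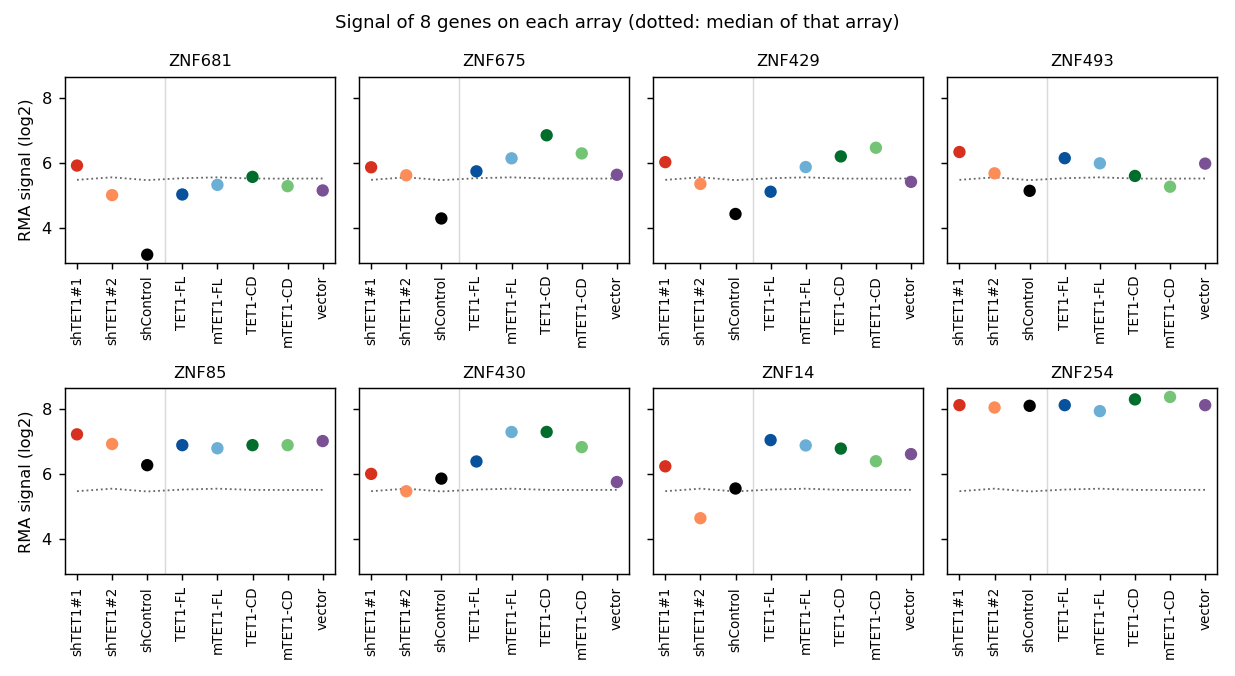
Log2 RMA signal (vertical axis) of 8 genes on each of the 8 arrays, 1 panel per gene, with shTET1#1, shTET1#2 and shControl on the left of the grey line, the 4 TET1 plasmids and the vector on its right, and the array median dotted. For ZNF681 the control clone, at 3.18, lies below the other 7 arrays, which sit between 5.01 and 5.91, and for ZNF14 the array labelled shTET1#2, at 4.65, is the lowest.

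No member passed the test of the knockdown comparison. Of the 15 genes tested, without ZNF681, 0 had a limma adjusted p under 0.05 (background 0.00% of 28946 clusters), the adjusted p ran between 0.497 and 0.993, and 4 had an unadjusted p under 0.05, ZNF675, ZNF429, ZNF493 and ZNF85 (background 7.93%). Both clones lay above the control in 12 of the 29 genes (background 30.6%) and below it in 7 (background 31.7%). They lay at least 2-fold above in 2 of the 29, ZNF675 and ZNF681 (background 0.380%), of which ZNF681 was known beforehand, and at least 2-fold below in none (background 0.580%). Over the 29 genes the median difference was 0.11, with 16 higher and 13 lower, against 0.00 over all clusters. It was 0.26 in shTET1#1 and -0.03 in shTET1#2, so the median had opposite signs in the clones.

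The other zinc finger genes of chromosome 19 stood higher in the same arrays too. Their median difference was 0.20, with 145 of 202 higher, both clones were above the control in 108 (53.5%) and at least 2-fold above it in 10 (4.95%). The difference between the 29 genes and these 202 was not tested.

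The control clone enters every one of these differences, and for several members it was also low beside the other experiment. The empty vector minus shControl, 1 array on each side, was 1.97 for ZNF681, 1.34 for ZNF675, 1.06 for ZNF14, 0.99 for ZNF429 and 0.84 for ZNF493, while ZNF708 was lower in the vector by 0.78 (5.21 against 5.99). It was at least 2-fold in 3 of the 29 genes, ZNF14, ZNF675 and ZNF681 (background 1.96%), and none was 2-fold lower (background 2.30%). The control clone was the lowest of the 8 arrays in 7 of the 29 genes (24.1%, background 13.8%), which were ZNF429, ZNF493, ZNF675, ZNF681, ZNF85, ZNF91 and ZNF93, and in 87 of the 202 other zinc finger genes of chromosome 19 (43.1%). It was at least 2-fold below each of the other 7 arrays in 2 of the 29, ZNF675 and ZNF681 (background 0.172%), and in 7 of the 202 others (3.47%). ZNF681 is among the 3, the 7 and the 2 of the 29, and it was selected in part on its value in the control clone. Its place in these counts is therefore no finding. With the vector in place of shControl the knockdown difference was 0.11 for ZNF675, 0.27 for ZNF429, 0.03 for ZNF493 and 0.06 for ZNF85, and it was -1.17 for ZNF14. The vector was transfected and sorted and the control clone was not, so the treatment and the clone cannot be told apart in these values.

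**Figure D3:**
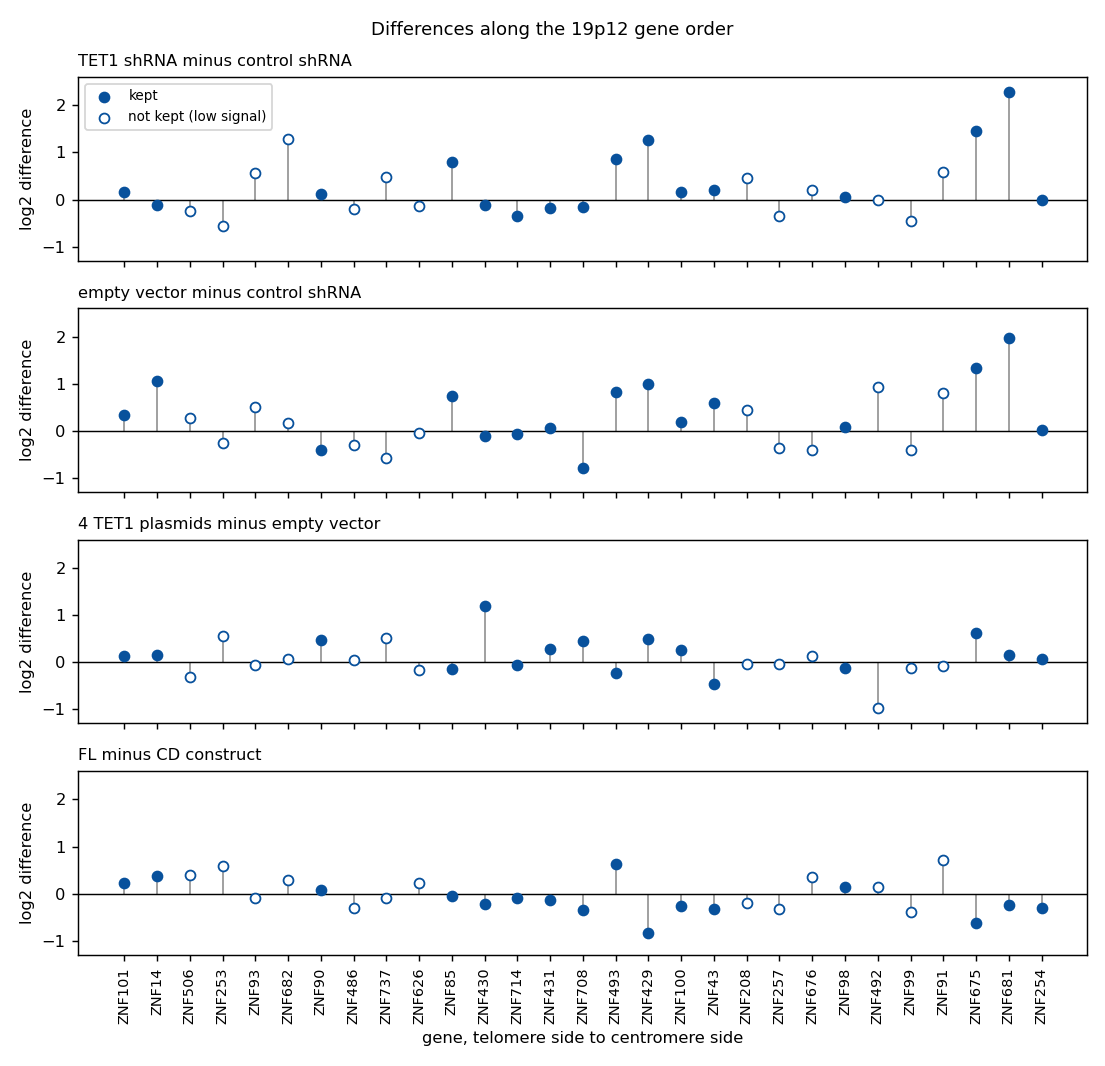
Log2 differences (vertical axis) of the 29 genes in their order along the chromosome, in 4 panels for TET1 shRNA minus shControl, vector minus shControl, the 4 TET1 plasmids minus the vector, and FL minus CD, with open points for genes that did not enter the tests. ZNF681 and ZNF675 lie at 2.28 and 1.45 in the first panel and at 1.97 and 1.34 in the second, and ZNF430 has the highest point of the plasmid panel at 1.19.

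With TET1 plasmids, ZNF430 stood out by size, higher than in the vector with all 4 plasmids. It had 6.39 in TET1-FL, 7.29 in mTET1-FL, 7.29 in TET1-CD and 6.83 in mTET1-CD, against 5.76 in the vector, a difference of 1.19 ± 0.42 (SE, limma adjusted p = 0.302). The plasmid arrays did not overlap the vector, and a mutant plasmid was as high as a wild-type one. Over all clusters, all 4 plasmids lay above the single vector array in 22.6% and below it in 28.0%. It was the one member of 29 whose mean difference reached 2-fold upward (background 1.32%), and none reached it downward (background 0.718%).

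ZNF675 was next, with 5.74, 6.14, 6.84 and 6.29 in TET1-FL, mTET1-FL, TET1-CD and mTET1-CD, against 5.63 in the vector (0.62 ± 0.29 SE, limma adjusted p = 0.395). ZNF429 had 5.11, 5.87, 6.19 and 6.46, against 5.41 (0.50 ± 0.30 SE, limma adjusted p = 0.506), so TET1-FL lay below the vector. ZNF90 had 5.76, 5.81, 5.74 and 5.66, against 5.27 (0.47 ± 0.14 SE, limma adjusted p = 0.254), and the 4 plasmids lay close together. Its knockdown arrays, at 5.74, 5.81 and 5.67 in shTET1#1, shTET1#2 and shControl, were at the level of the plasmid arrays, so that the vector was the lowest of all 8 arrays, and with shControl in place of the vector the difference was 0.07. ZNF43 went the other way, with 5.52, 5.12, 5.55 and 5.73, against 5.94 in the vector (-0.46 ± 0.20 SE, limma adjusted p = 0.377). ZNF492, below the filter, had 4.06, 4.26, 4.15 and 3.88, against 5.07 in the vector, a difference of -0.98. Its 3 knockdown arrays, at 4.14, 4.11 and 4.14, were as low as the plasmid arrays, so for ZNF492 too the vector was the array apart.

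ZNF681 itself differed little here, with 5.03, 5.32, 5.57 and 5.28 in TET1-FL, mTET1-FL, TET1-CD and mTET1-CD, against 5.15 in the vector, which lies within the range of the 4 plasmids. ZNF85 had 6.89, 6.79, 6.89 and 6.89, all below the vector at 7.01, and the 4 plasmid arrays spanned 0.096. No member passed the test: of the 16 tested, 0 had a limma adjusted p under 0.05 (background 0.00%), with adjusted p between 0.254 and 0.956, and 2, ZNF430 and ZNF90, had an unadjusted p under 0.05 (background 15.0%). The clusters of TET1, which the plasmids supply, did not pass either, so falling short of this threshold does not show that a member was unchanged. All 4 plasmids were above the vector in 8 of the 29 genes (background 22.6%), which were ZNF100, ZNF253, ZNF430, ZNF431, ZNF675, ZNF708, ZNF737 and ZNF90. All 4 were below it in 4 (background 28.0%), which were ZNF43, ZNF492, ZNF506 and ZNF85. The upward count was near its background and the downward count was below it, and the median over the 29 genes was 0.06, against 0.11 for the other zinc finger genes of chromosome 19 and -0.02 for all clusters. The single vector array entered every one of these differences.

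The wild-type and mutant plasmids ask which differences go with the catalytic activity of the supplied protein. Of the 16 genes tested, 0 had a limma adjusted p under 0.05 (background 0.00%), with every adjusted p at 1, and 0 had an unadjusted p under 0.05 (background 1.96%). The largest difference among these 16 was that of ZNF429, with 5.11 in TET1-FL against 5.87 in mTET1-FL and 6.19 in TET1-CD against 6.46 in mTET1-CD (-0.51 ± 0.27 SE). ZNF14 was higher with the wild-type plasmid in both constructs, with 7.04 against 6.88 in FL and 6.78 against 6.39 in CD (0.28 ± 0.52 SE). The SE of ZNF14 also holds the gap of 1.59 between its 2 TET1 shRNA clones, because the fit pools that spread. ZNF708 had 5.56 against 5.42 in FL and 6.01 against 5.65 in CD (0.25 ± 0.19 SE), and ZNF493 had 6.14 against 5.98 in FL and 5.59 against 5.26 in CD (0.24 ± 0.24 SE).

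ZNF430 had opposite signs in the constructs. It had 6.39 in TET1-FL against 7.29 in mTET1-FL, a difference of -0.90, and 7.29 in TET1-CD against 6.83 in mTET1-CD, a difference of 0.47. The average over both constructs, -0.22 ± 0.37 SE, therefore describes neither. ZNF675 was also opposite in the constructs, at -0.40 in FL and 0.56 in CD, and so was ZNF681, at -0.29 in FL and 0.28 in CD. The wild-type plasmid was above its mutant in both constructs in 12 of the 29 genes (background 23.7%) and below in 3, ZNF100, ZNF429 and ZNF93 (background 22.7%). Among the other zinc finger genes of chromosome 19 it was above in both in 84 of 202 (41.6%), and the median difference was 0.05 for the 29 genes and 0.08 for these others.

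Between the FL and CD constructs, members differed in both directions. ZNF429 had 5.11 and 5.87 in TET1-FL and mTET1-FL, against 6.19 and 6.46 in TET1-CD and mTET1-CD (-0.84 ± 0.27 SE, limma adjusted p = 0.292). ZNF675 was likewise lower with FL, at 5.74 and 6.14, against 6.84 and 6.29 with CD (-0.63 ± 0.26 SE, limma adjusted p = 0.391). ZNF493 was higher with FL, at 6.14 and 5.98, against 5.59 and 5.26 with CD (0.63 ± 0.24 SE, limma adjusted p = 0.362). In none of these 3 genes did the FL and CD arrays overlap. Over all clusters, both FL arrays lay above both CD arrays in 23.5% and below them in 20.0%.

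ZNF14 had 7.04 and 6.88 with FL, against 6.78 and 6.39 with CD (0.37 ± 0.52 SE, limma adjusted p = 0.837). FL was above CD by 0.26 in the wild-type pair and 0.48 in the mutant pair. The gap of 1.59 between the TET1 shRNA clones enters this SE too. ZNF708 had 5.56 and 5.42 with FL, against 6.01 and 5.65 with CD (-0.34 ± 0.19 SE, limma adjusted p = 0.525). ZNF91, below the filter, had 5.64 and 5.21 with FL, against 4.76 and 4.69 with CD, a difference of 0.70. ZNF91 and ZNF675 lie next to each other in the order of the genes on the array and differed in opposite directions, as did ZNF493 and ZNF429. Other neighbours went the same way, such as ZNF675 and ZNF681 (-0.63 and -0.25) and ZNF101 and ZNF14 (0.22 and 0.37). These pairs were picked after their values were seen.

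None of the 16 genes tested had a limma adjusted p under 0.05 in FL minus CD (background 0.00%), and 2, ZNF429 and ZNF493, had an unadjusted p under 0.05 (background 13.7%). Both FL arrays were above both CD arrays in 8 of the 29 genes (background 23.5%), which were ZNF101, ZNF14, ZNF253, ZNF493, ZNF506, ZNF676, ZNF90 and ZNF91. Both were below in 7 (background 20.0%), which were ZNF100, ZNF254, ZNF257, ZNF429, ZNF43, ZNF675 and ZNF708. The median over the 29 genes was -0.09, against 0.12 for the other zinc finger genes of chromosome 19, of which 148 of 202 were higher with FL, and 0.01 for all clusters. Both FL arrays were above both CD arrays in 84 of those 202 (41.6%) and below in 19 (9.41%). The difference between the 29 genes and the 202 was not tested.

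**Figure D4:**
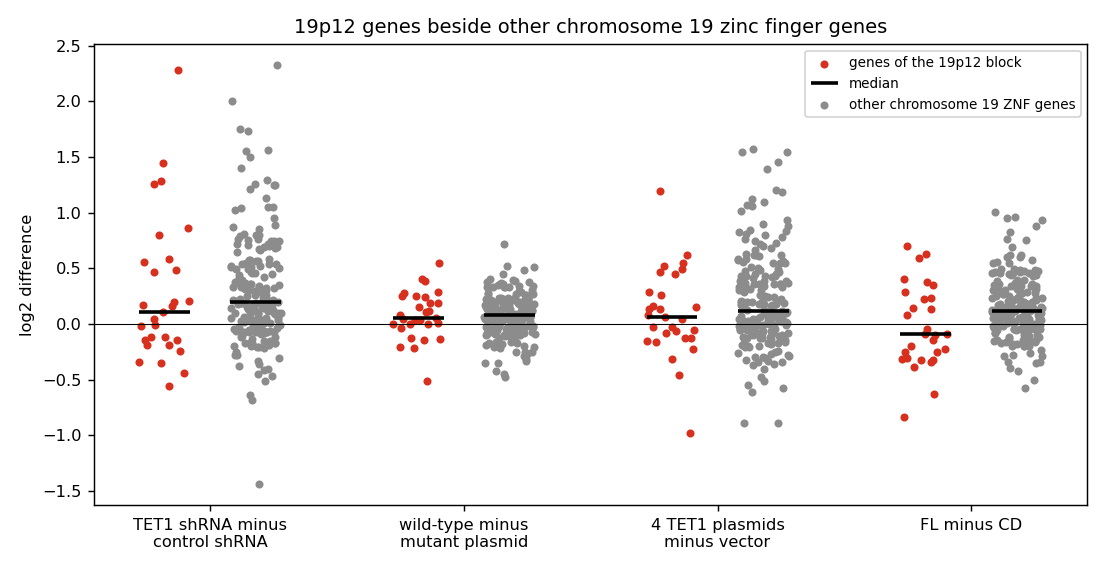
Log2 differences (vertical axis) in the 4 tested comparisons, with 1 red point for each of the 29 genes of the block, 1 grey point for each of the 202 other zinc finger genes of chromosome 19, and black lines at the medians. In FL minus CD the medians lie at -0.09 for the block and 0.12 for the others, and in TET1 shRNA minus shControl at 0.11 and 0.20.

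The proteins that KRAB domains recruit, or that hold heterochromatin at zinc finger clusters, were read from a list of 30 genes, of which 26 had a cluster and all 26 entered the tests. None passed the limma threshold in any of the 4 comparisons, with lowest adjusted p of 0.682 in the knockdown, 1 in wild-type minus mutant, 0.236 in plasmids minus vector and 0.182 in FL minus CD. An unadjusted p under 0.05 was found for 3 of the 26 in plasmids minus vector, for 3 in FL minus CD, and for 0 in the other comparisons. That is 11.5% in each of the first 2, below the 15.0% and 13.7% of all clusters tested. TRIM28, the hub of KRAB repression, lay between 10.5 and 10.9 on all 8 arrays. In the knockdown comparison 10 of the 26 were higher and 16 lower, with a median of -0.08. The lowest was ATRX, a chromatin remodeller known to bind the 3' ends of zinc finger genes, with 7.27 in shTET1#1 and 8.30 in shTET1#2, against 8.46 in shControl (-0.67). UHRF1, which guides maintenance DNA methylation, was next at -0.42, followed by MORC2, a partner of the HUSH complex, at -0.26. The vector lay below shControl in 23 of these 26 genes and in 47.7% of all clusters tested. The median over the 26 was -0.16, whereas the median over the 29 zinc finger genes in the same pair of arrays was 0.16.

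With the plasmids, the largest differences from the vector in that list were those of ZNF274, itself a KRAB zinc finger protein that binds the 3' ends of other zinc finger genes, at 0.72, the histone chaperone DAXX at 0.61 and the SETDB1 partner ATF7IP at 0.49. In FL minus CD the largest were the methyltransferase SUV39H2 at -0.54, UHRF1 at -0.49 and ATRX at -0.39, and 19 of the 26 genes were lower with FL (median -0.11), against 49.3% of all clusters tested. In wild-type minus mutant the largest were the DNA methyltransferase DNMT3B at 0.28, UHRF1 at 0.14 and the HUSH subunit MPHOSPH8 at 0.12, and the median was 0.02. UHRF1 had opposite signs in the constructs, at 0.36 in FL and -0.08 in CD.

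Between the outermost members the gene table lists 160 other named genes of which 7 had a cluster on the array and 1 entered the tests. That gene, the non-coding RNA LINC00663, had 5.98 in shTET1#1 and 6.05 in shTET1#2, against 5.52 in shControl and 6.42 in the vector (0.50 for TET1 shRNA minus shControl, limma adjusted p = 0.616). Zinc finger genes that arose by duplication can be similar in the transcribed sequence, and neither that similarity nor the probes of each cluster were analysed here, so how far a cluster reads its neighbours is uncertain.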

How the data were processed

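RNA was measured on 8 Affymetrix arrays. Per the submitters' processing notes, the deposited log2 values were made with Affymetrix Expression Console 1.3.1 and RMA, and the values table was used as deposited. Of 53981 rows, 364 had no values, and 16098 of the remaining 53617 clusters had 1 gene symbol in the platform annotation. The genome build of the array annotation is not given in the sources used here.

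A linear model was fitted with limma 3.58.1 in R 4.3.3 on all 8 arrays and on the 28946 clusters above their array's median on at least 2 arrays, with 1 term each for the hairpin groups, the vector, the mutant plasmids, the wild-type plasmids and the FL or CD form. It left 2 residual degrees of freedom. They hold the gap between the 2 TET1 shRNA clones and the wild-type minus mutant difference that FL and CD do not share. This pooled spread sets the SE of every comparison. P-values were adjusted by Benjamini-Hochberg over all clusters tested, with a threshold of 0.05. The fit was also run on simulated data with planted differences and independent noise on each array. Those data held no clone or experiment effects, so they cannot test the limits that such effects set here. Named genes were ZNF681, the 5 members past the filter with the largest difference in each comparison, any further such member 2-fold apart, and the 3 largest of the co-repressor list. ZNF254, ZNF682, ZNF91, ZNF93, ZNF100 and ZNF492, and ZNF85 in the plasmid arrays, were named after their values were seen. Of the other zinc finger genes of chromosome 19, counts alone are given. The members and lists were chosen with earlier results of these data known. Alternatives were other normalizations, filters, variance priors and reference arrays. Protein sequences were not used here.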

Additional observations from a re-analysis of the deposited data

Results flagged for a closer look

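ZNF430 differed in opposite directions in the 2 constructs: wild-type minus mutant was -0.90 in FL (6.39 in TET1-FL against 7.29 in mTET1-FL) and 0.47 in CD (7.29 in TET1-CD against 6.83 in mTET1-CD), so that the CD difference minus the FL difference was 1.37. Each side rests on 1 array, and the difference was not tested. Of the 28946 clusters tested, 486 (1.68%) likewise had opposite signs and lay at least 2-fold apart.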

How the results depend on the processing

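No member passed the limma threshold under any alternative with a test. Of 156 values of single members under an alternative with a test, 155 kept their sign and stayed short of the threshold and 1 had the other sign. Of 33 values under an alternative without a test, 30 kept their sign and 3 did not. These single values cover only the 5 members with the largest difference in each comparison. Members picked for a large difference change sign less easily, so these counts do not describe the other members. The medians below are over the members that passed the filter in use, which in the main setting include ZNF681. The knockdown median, 0.14 against shControl, was -0.022 with the vector in place of shControl and -0.11 with the mean of the 5 arrays of transfected cells in its place, an alternative chosen after seeing the data, in which ZNF675 was at -0.39 and ZNF429 at -0.13. It was 0.058 without shTET1#1 and 0.31 without shTET1#2, where the lone clone is assumed to vary like the other groups. The wild-type minus mutant median, 0.07, was 0.14 in the FL pair alone, and ZNF430 was at 0.47 in the CD pair alone. The median of plasmids minus vector, 0.16, was 0.062 with no filter, 0.24 with the CD plasmids alone and 0.46 with shControl in place of the vector, where ZNF43 was at 0.14. The median of FL minus CD, -0.18, was -0.094 with no filter, -0.14 with a filter of at least 4 arrays, -0.063 in the wild-type plasmids alone and -0.11 in the mutant plasmids alone. The cause of these shifts was not tested. Each symbol had 1 cluster, so the choice of the lowest cluster gave no other value. No paired analysis by replicate number was possible, because the labels give no number shared between groups. The wild-type and mutant plasmids were matched by construct, which the fit held as a term. Precision is limited by the number of arrays, and 13 of the 29 genes were above the array median on fewer than 2 arrays.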
